A study of Mus musculus with 217 samples.

Results

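The genes described here are 34 genes whose transcripts in the brain come mainly from the vessel wall, 29 of them used as markers of endothelial cells and 5 as markers of pericytes, the contractile cells that wrap the capillaries. They were taken by name, as markers of these cells and not by a threshold on their values, but with earlier results of these data known. The share of the 34 called is therefore a description beside the share of all genes. All 34 were found among the 54532 genes of the deposited tables. They were followed in bulk RNA-Seq of striatum and cerebral cortex from 110 mice killed at 6 or 12 months of age, 217 libraries in all. All mice were C57BL/6 and all carried the beta-actin-LacIR transgene, which expresses a *Lac* repressor from a ubiquitous promoter, so no group was free of the repressor. The mutant mice, labelled Hdh(LacO-140Q/+):beta-actin-LacIR tg and called LacQ140 here, had 1 huntingtin allele with an expanded repeat and *Lac* operators in its promoter, and the controls, labelled Hdh(LacO-+/+):beta-actin-LacIR tg and called WT, carried no expanded allele. IPTG, a lactose analog given in drinking water or chow, releases the repressor and lets the mutant allele be expressed. WT mice received no IPTG (WT) or IPTG from embryonic day 5 onward (WT + IPTG). LacQ140 mice received IPTG from embryonic day 5 until death (LacQ140), never (LacQ140_A, lowered from conception), until 2 months (LacQ140_2M) or until 8 months (LacQ140_8M, present at 12 months only). Each group of a tissue and age had 10 libraries, 5 from females and 5 from males, except that WT, LacQ140 and LacQ140_8M had 9 in 12-month striatum, 4 from females and 5 from males.

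Brain endothelial cells form the blood-brain barrier. Claudins, occludin and cadherins seal the clefts between them, glucose enters through a facilitative carrier, efflux pumps return many compounds to the blood, and few vesicles cross the cell. Vascular endothelial growth factor and angiopoietin receptors, Notch and Wnt signals and the SOX, FOX and ETS transcription factors set up and maintain this state, and pericytes attached through platelet-derived growth factor signalling help to keep the barrier closed. In bulk tissue, a lower value can mean fewer vascular cells or less RNA per cell, and these cannot be told apart here.

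Summed counts per library lay between 33292057 and 68038831, and the lowest count of any of the 34 genes in any library was 6, for *Anpep*. Huntingtin transcript (*Htt*, both alleles together) had a median of 99.6 CPM (counts scaled to a common library size) in LacQ140 and 87.9 CPM in LacQ140_A in 6-month striatum, and its log2 fold change from LacQ140 to LacQ140_A lay between -0.49 and -0.20 in the 4 sets of a tissue and age. None was called by the rule used below, although 12-month striatum (-0.249, adjusted p = 0.049 by edgeR) missed on the size of the change alone. For LacQ140_2M the *Htt* log2 fold change from LacQ140 lay between -0.426 and -0.146, again with none called, and for LacQ140_8M it was -0.001 (SE 0.071) in 12-month striatum and -0.408 in 12-month cortex, where it was not called. The 12-month cortex stood apart from the other 3 sets. In each library the log2 CPM of all genes was regressed on log2 transcript length, and the slope lay between -0.29 and 0.16 in 12-month cortex against 0.19 to 0.65 elsewhere, so long transcripts had relatively low values there. The labels give 1 batch per age, so age and batch cannot be told apart and no test was made across ages.

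The level of each gene was compared with the others as CPM per kb of its longest annotated transcript, given as mean ± SD over 10 WT libraries without IPTG. In 6-month striatum, *Ly6c1*, a GPI-anchored surface protein of brain capillaries, was highest at 67.4 ± 8.13 CPM per kb. It was followed by *Slc2a1*, the glucose carrier of the barrier, at 42.5 ± 7.33 CPM per kb, and by *Vtn*, which encodes vitronectin and is made by pericytes, at 41.7 ± 5.71 CPM per kb. *Itm2a*, *Ly6a*, the tight junction gene *Cldn5*, *Rgs5* and the thyroid hormone transporter *Slco1c1* came next, between 38.1 and 24.0 CPM per kb. The 6 genes next in order (*Slco1a4*, *Mfsd2a*, *Esam*, *Abcb1a*, *Flt1* and *Pecam1*) lay between 14.6 and 8.67 CPM per kb, and 16 genes lay between 8.01 and 1.8 CPM per kb (*Eng*, *Adgrl4*, *Adgrf5*, *Pdgfrb*, *Ptprb*, *Cdh5*, *Abcg2*, *Tek*, *Ocln*, *Sox18*, *Emcn*, *Tie1*, *Kdr*, *Vwf*, *Erg* and *Foxf2*). *Abcc9*, *Sox17*, *Foxq1* and *Anpep* closed the order, from 1.53 down to 0.665 CPM per kb. The highest level was 101.4 times the lowest in striatum and 59.4 times in cortex. Of the 33 pairs of neighbours in the order, 10 in striatum and 7 in cortex differed by more than 1 SD, so most neighbours could not be ordered beyond their spread. The order in 6-month cortex also began with *Ly6c1*, at 69.9 ± 7.11 CPM per kb, and ended with *Foxq1* and *Sox17*, both at 1.18 CPM per kb.

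**Figure D1:**
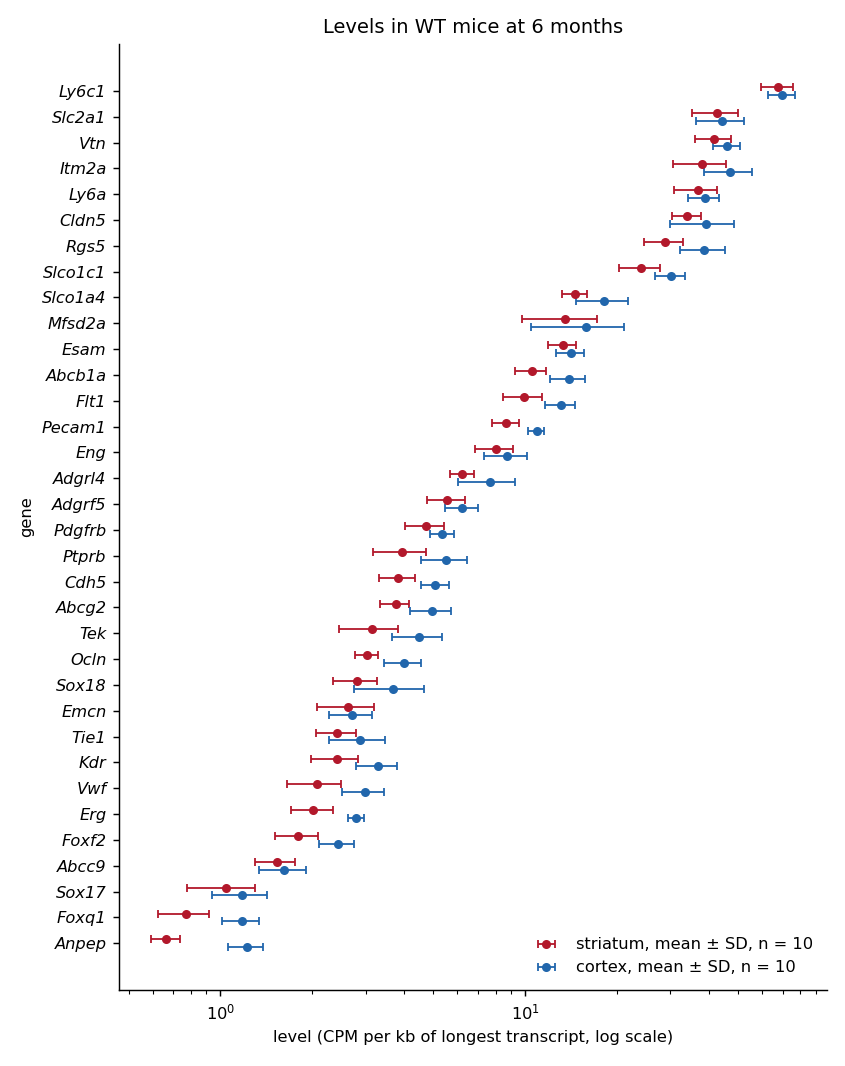
Level of each of the 34 genes in WT mice without IPTG at 6 months, as CPM per kb of the longest transcript on a log axis; points are means and bars SDs over 10 libraries, red for striatum and blue for cortex. *Ly6c1* is highest in both tissues, and *Anpep* is lowest in striatum at 0.665 CPM per kb.

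RefSeq promoter sequences on GRCm38.p6 were found for 24 of the 34 genes and read over the 250 bases before the start of transcription. AGGAAG, the core bound by ETS factors such as the member *Erg*, was sought on both strands and stood in a start window of 14 of these 24 genes (58.3%), against 32.3% of 27025 genes. AACAAT, a core of SOX factors, stood in 4 (16.7%, against 10.9% of all genes), and TGTTTAC, a core of FOX factors, in 1 (4.17%, against 3.54%). A match describes the letters and does not show that a factor binds. The windows of 4 of the genes called lower in LacQ140 striatum are shown, chosen to span surface proteins, a receptor and a transporter, on the gene's own strand, 5′ to 3′, with every AGGAAG or its complement in capitals. They are *Ly6c1* (chr15:75048838-75049087, minus strand), *Adgrl4* (chr3:151437632-151437881, plus strand), *Slco1c1* (chr6:141524104-141524353, plus strand) and *Emcn* (chr3:137340828-137341077, plus strand).
Ly6c1: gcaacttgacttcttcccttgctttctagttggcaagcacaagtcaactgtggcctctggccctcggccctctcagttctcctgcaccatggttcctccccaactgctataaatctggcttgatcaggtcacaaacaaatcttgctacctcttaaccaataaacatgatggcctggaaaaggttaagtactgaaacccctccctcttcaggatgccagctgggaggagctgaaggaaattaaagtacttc
Adgrl4: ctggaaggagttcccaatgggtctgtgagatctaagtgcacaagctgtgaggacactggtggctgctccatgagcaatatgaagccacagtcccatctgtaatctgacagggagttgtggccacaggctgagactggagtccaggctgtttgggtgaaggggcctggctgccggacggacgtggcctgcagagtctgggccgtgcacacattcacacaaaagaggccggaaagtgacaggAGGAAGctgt
Slco1c1: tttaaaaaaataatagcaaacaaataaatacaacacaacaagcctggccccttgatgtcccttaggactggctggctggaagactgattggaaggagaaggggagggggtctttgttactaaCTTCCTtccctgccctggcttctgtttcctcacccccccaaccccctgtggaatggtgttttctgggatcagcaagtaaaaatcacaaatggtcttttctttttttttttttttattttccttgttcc
Emcn: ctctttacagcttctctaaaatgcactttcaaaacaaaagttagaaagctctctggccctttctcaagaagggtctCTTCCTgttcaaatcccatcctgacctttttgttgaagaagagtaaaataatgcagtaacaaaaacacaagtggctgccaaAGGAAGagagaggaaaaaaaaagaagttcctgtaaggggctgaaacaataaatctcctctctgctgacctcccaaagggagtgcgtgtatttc
The window of *Emcn* held 2 matches on opposite strands, those of *Adgrl4* and *Slco1c1* held 1 each, and the window shown for *Ly6c1* held 0, although another RefSeq start of that gene has one.

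LacQ140 was first compared with WT + IPTG, which had the same drug exposure. A gene was called when edgeR's quasi-likelihood test with Benjamini-Hochberg adjustment over all genes gave an adjusted p under 0.05 and the change was at least 20%. In 6-month striatum, vascular genes of every role were lower in LacQ140. Of the 34 genes 11 (32.4%) were called, all lower, against 7.93% of all 35808 genes tested and 3.96% for lower alone. The median log2 fold change of the 34 was -0.23, against 0.00 for all genes, and 31 of 34 were below 0. Among the 18841 genes that edgeR's filterByExpr kept as sufficiently expressed, 8.03% were called lower.

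The smallest p-values belonged to the surface proteins *Ly6a* and *Ly6c1*. *Ly6a*, a GPI-anchored protein also known as Sca-1, ran from 40.9 to 55.5 CPM (median 49) in WT + IPTG and from 28.3 to 35.3 CPM (median 30.4) in LacQ140. No LacQ140 library reached the lowest WT + IPTG library, and the log2 fold change was -0.67 (SE 0.075, adjusted p = 9.3e-10). *Ly6c1* ran from 57.4 to 82.2 CPM (median 69.0) in WT + IPTG and from 42.5 to 55.8 CPM (median 47.1) in LacQ140, again without overlap (log2 fold change -0.52, SE 0.072, adjusted p = 1.7e-07). Both genes lie on the minus strand in the *Ly6* cluster of chromosome 15 (GRCm38, *Ly6a* at chr15:74994877-74998031 and *Ly6c1* at chr15:75044018-75048830) and resemble their neighbours, and how reads shared between such copies were counted is not given, so the split between them is uncertain. *Emcn*, which encodes endomucin, a mucin of capillary and venous endothelium (chr3:137341067-137432185, plus strand), ran from 7.45 to 10.2 CPM in WT + IPTG and from 5.91 to 8.58 CPM in LacQ140, where 9 of 10 libraries lay below all of WT + IPTG (log2 fold change -0.37, SE 0.083, adjusted p = 0.001). The other surface and secreted genes, *Itm2a* and *Vwf* (von Willebrand factor), were not called.

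*Adgrl4*, an adhesion G protein-coupled receptor of angiogenic endothelium (chr3:151437887-151545086, plus strand), ran from 27.1 to 40.5 CPM (median 32.5) in WT + IPTG and from 17.7 to 27.1 CPM (median 23.3) in LacQ140. The highest LacQ140 library was just under the lowest WT + IPTG library, and the log2 fold change was -0.47 (SE 0.071, adjusted p = 1.7e-06). *Adgrf5*, the other receptor of this class, was not called (log2 fold change -0.08, adjusted p = 0.66).

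Among the 6 transporters, *Slco1c1*, which carries thyroxine and organic anions (chr6:141524368-141570177, plus strand), ran from 66.3 to 90 CPM (median 75.4) in WT + IPTG and from 30.8 to 65.8 CPM (median 58.5) in LacQ140. The groups were apart, with 1 LacQ140 library far below the rest, and the log2 fold change was -0.44 (SE 0.079, adjusted p = 3.4e-05). *Slc2a1* (chr4:119108711-119137983, plus strand) ran from 149.5 to 247.2 CPM (median 188.4) in WT + IPTG and from 117.2 to 219.1 CPM (median 159.1) in LacQ140. The ranges overlapped widely, and its call was close to the threshold (log2 fold change -0.28, SE 0.099, adjusted p = 0.048). The efflux pumps *Abcb1a* (P-glycoprotein) and *Abcg2*, the organic anion carrier *Slco1a4* and the lipid carrier *Mfsd2a* were not called, and *Mfsd2a* had a log2 fold change of -0.005. For *Abcb1a* and *Slco1a4*, as for the *Ly6* genes, close paralogs make the split of shared reads uncertain.

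*Sox17* and *Sox18*, related endothelial transcription factors, had low levels and large fold changes. *Sox18* ran from 4.03 to 6.91 CPM in WT + IPTG and from 2.45 to 5.27 CPM in LacQ140 (log2 fold change -0.61, SE 0.13, adjusted p = 0.0005). *Sox17* ran from 3.37 to 6.28 CPM in WT + IPTG and from 2.03 to 3.91 CPM in LacQ140 (log2 fold change -0.59, SE 0.125, adjusted p = 0.00056). For both, 8 of 10 LacQ140 libraries lay below every WT + IPTG library. The other transcription factors, *Erg*, *Foxf2* and *Foxq1*, were not called, and *Foxq1* had the only log2 fold change of the 34 above 0.1 (0.30, adjusted p = 0.062).

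*Esam*, an adhesion molecule of endothelial junctions, ran from 24.2 to 30.2 CPM in WT + IPTG and from 19.7 to 25.4 CPM in LacQ140, with 8 of 10 LacQ140 libraries below all of WT + IPTG (log2 fold change -0.33, SE 0.062, adjusted p = 9.3e-05). The tight junction genes *Cldn5* and *Ocln*, the cadherin gene *Cdh5* and *Pecam1* were not called, and *Ocln* (adjusted p = 0.011) and *Pecam1* (adjusted p = 0.016), as well as the pericyte gene *Vtn* (adjusted p = 0.012), missed on the size of the change alone, with log2 fold changes of -0.229, -0.244 and -0.235. *Tie1*, an orphan partner of the angiopoietin receptor, was the only one of the 6 receptor and phosphatase genes to be called (log2 fold change -0.28, SE 0.078, adjusted p = 0.0086). *Rgs5*, a regulator of G protein signalling and a pericyte marker, ran from 90.5 to 128.6 CPM in WT + IPTG and from 78.0 to 103.8 CPM in LacQ140, with 5 of 10 LacQ140 libraries below all of WT + IPTG (log2 fold change -0.29, SE 0.062, adjusted p = 0.00074). *Pdgfrb*, the receptor that holds pericytes to the vessel, had a log2 fold change of 0.05 (adjusted p = 0.82).

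**Figure D2:**
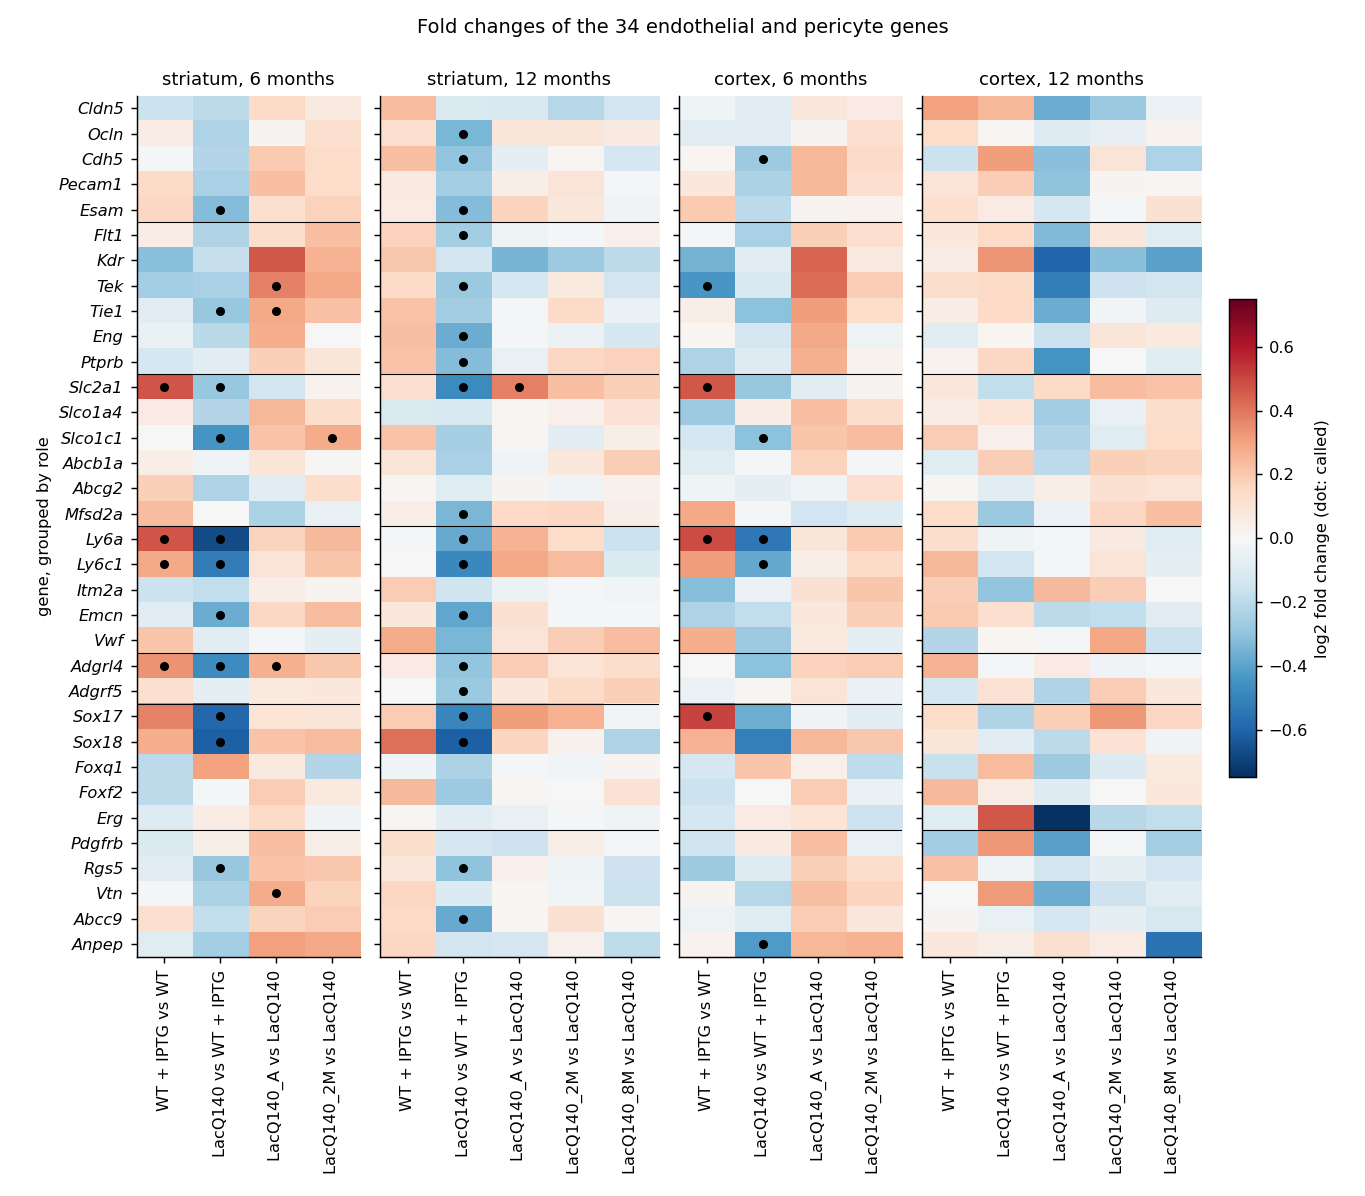
Log2 fold change of the 34 genes (rows, grouped by role and separated by lines) in each comparison (columns) for the 2 tissues and ages; the colour scale runs from -0.75 to 0.75 and a dot marks a called gene. The LacQ140 against WT + IPTG column is blue for 31 of 34 genes in 6-month striatum and for all 34 in 12-month striatum, and 12-month cortex has no dot.

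In 12-month striatum genes of every role were lower in LacQ140 than in WT + IPTG. Of the 34 genes 18 (52.9%) were called, all lower, against 9.44% of 35386 genes tested and 4.86% for lower alone (9.35% among genes kept by filterByExpr). All 34 log2 fold changes were below 0, from -0.61 to -0.09, with a median of -0.28. By role, 2 of 2 adhesion receptors, 4 of 6 growth factor receptor and phosphatase genes, 3 of 5 junction genes, 3 of 5 other surface genes, 2 of 6 transporters, 2 of 5 transcription factors and 2 of 5 pericyte genes fell. The groups overlapped for every called gene.

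*Ly6c1* had the smallest p-value. It ran from 46.9 to 77.7 CPM (median 52.8) in WT + IPTG and from 30.7 to 47 CPM (median 40.2) in LacQ140, with 8 of 9 LacQ140 libraries below all of WT + IPTG (log2 fold change -0.49, SE 0.092, adjusted p = 4.6e-05). *Ly6a* overlapped more, with 4 of 9 LacQ140 libraries below all of WT + IPTG, and fell by 0.376 on the log2 scale (SE 0.104, adjusted p = 0.0066). *Emcn* fell by 0.39 on the log2 scale (SE 0.087, adjusted p = 0.00055).

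*Slc2a1* ran from 154.8 to 246.4 CPM (median 204.2) in WT + IPTG and from 125.6 to 165.7 CPM (median 137.8) in LacQ140. Here 7 of 9 LacQ140 libraries lay below all of WT + IPTG, and the log2 fold change was -0.47 (SE 0.094, adjusted p = 9.1e-05). *Eng*, the endoglin coreceptor of TGF-beta signalling, ran from 34.3 to 51.1 CPM (median 42.9) in WT + IPTG and from 26.4 to 39.8 CPM (median 33.4) in LacQ140 (log2 fold change -0.37, SE 0.074, adjusted p = 9.7e-05). In *Eng*, 6 of 9 LacQ140 libraries were below all of WT + IPTG.

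*Sox18* (log2 fold change -0.61, SE 0.134, adjusted p = 0.00044) and *Sox17* (log2 fold change -0.49, SE 0.128, adjusted p = 0.004) fell. Of the junction genes, *Esam* (log2 fold change -0.32, adjusted p = 0.00058), *Ocln*, which encodes occludin (-0.34, adjusted p = 0.00066), and *Cdh5*, which encodes VE-cadherin (-0.30, adjusted p = 0.0027), fell, whereas *Cldn5* did not pass (-0.11, adjusted p = 0.67). Of the pericyte genes, *Rgs5* (log2 fold change -0.30, adjusted p = 0.00056) and *Abcc9*, a potassium channel subunit (-0.38, adjusted p = 0.002), fell, and *Pdgfrb*, *Vtn* and *Anpep* did not pass. *Adgrf5* completed the 12 genes with the smallest p-values among those called (log2 fold change -0.28, adjusted p = 0.0043). The 6 further called genes, *Ly6a* and *Adgrl4* among them, had log2 fold changes from -0.38 to -0.26 and included *Flt1* and *Tek*, receptors for VEGF and angiopoietins, *Ptprb*, a phosphatase that acts on *Tek*, and *Mfsd2a*.

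The comparison rests in part on the control group. WT + IPTG libraries enter both the LacQ140 and the IPTG comparison, so the values of the 2 comparisons are given side by side and are not independent. In 6-month striatum 4 of 34 genes rose with IPTG in WT mice (11.8%, against 0.584% of all genes). *Ly6a* ran from 28.4 to 45.4 CPM (median 34.9) in WT, below most of WT + IPTG (40.9 to 55.5 CPM), and rose by 0.473 on the log2 scale (SE 0.075, adjusted p = 0.00064). *Slc2a1* ran from 111.2 to 178.5 CPM (median 135.3) in WT against 149.5 to 247.2 CPM with IPTG (log2 fold change 0.47, SE 0.099, adjusted p = 0.0073). *Adgrl4* (log2 fold change 0.34, adjusted p = 0.0069) and *Ly6c1* (0.29, adjusted p = 0.034) rose as well, and for all 4 genes every WT + IPTG library lay above the WT median. The median over the 34 genes was 0.03.

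**Figure D3:**
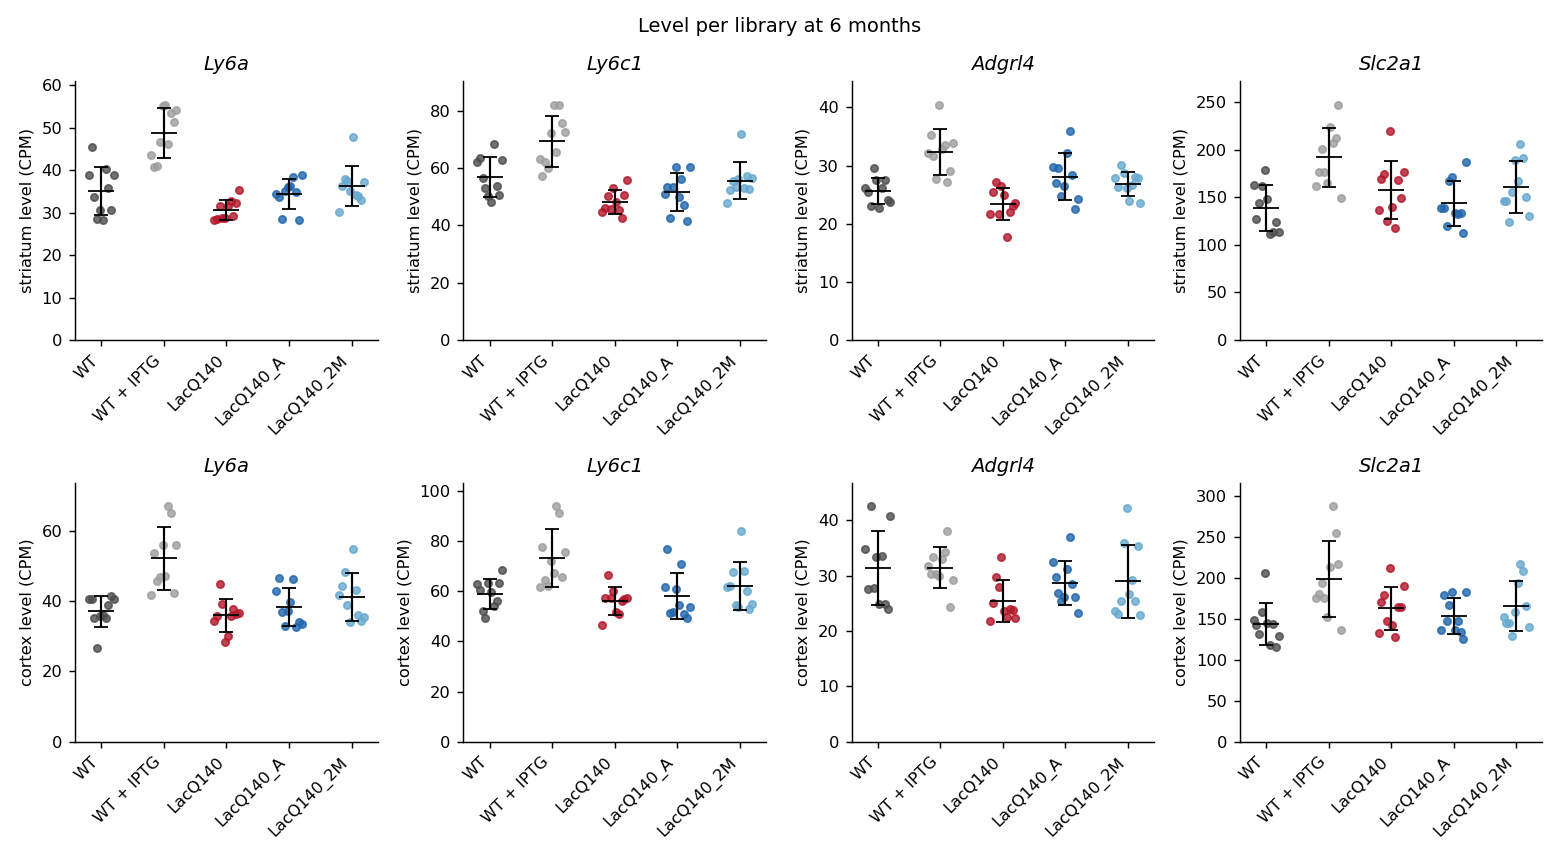
Level in CPM of *Ly6a*, *Ly6c1*, *Adgrl4* and *Slc2a1* in each library at 6 months, striatum above and cortex below, by group; points are libraries, and bars show mean and SD over 10 libraries. In both tissues WT + IPTG has the highest median of *Ly6a*, *Ly6c1* and *Slc2a1*, and the LacQ140 values of *Ly6a* in striatum (28.3 to 35.3 CPM) lie within the range of WT without IPTG (28.4 to 45.4 CPM) except at the low end.

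In 6-month cortex 3 genes rose with IPTG and 1 fell (11.8% of 34, against 0.609% of all genes). *Ly6a* ran from 26.7 to 41.3 CPM (median 37.4) in WT and from 41.7 to 66.9 CPM (median 50.4) in WT + IPTG, without overlap (log2 fold change 0.49, SE 0.09, adjusted p = 0.0026). *Sox17* (log2 fold change 0.51, SE 0.111, adjusted p = 0.014) and *Slc2a1* (0.46, SE 0.107, adjusted p = 0.022) rose. With the compared groups fitted alone 2 of the 34 genes were called and *Slc2a1* was not, and leaving out 1 library at a time gave 3 to 6, with *Ly6a*, *Sox17* and *Tek* called in every fit. *Tek*, the angiopoietin receptor, ran from 16.2 to 27.6 CPM (median 19.6) in WT and from 13.9 to 18.5 CPM (median 15.5) in WT + IPTG, with 8 of 10 WT + IPTG libraries below all of WT (log2 fold change -0.44, SE 0.086, adjusted p = 0.0047). In 12-month striatum 0 of 34 genes were called (0.218% of all genes), with 13 at an unadjusted p under 0.05 and 31 of 34 log2 fold changes above 0 (median 0.14). The log2 fold changes of *Ly6a* (-0.01, SE 0.103) and *Ly6c1* (0.00, SE 0.091) were near 0 there. In 12-month cortex 0 were called by edgeR (0% of all genes), with 2 at an unadjusted p under 0.05, and DESeq2 also called 0. The IPTG effect did not differ detectably between striatum and cortex for any of the 34 genes in a joint model that blocked on the mouse (0 called by edgeR at either age, against 0.0527% of all genes at 6 months and 0% at 12 months, with 6 and 1 at an unadjusted p under 0.05).

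When WT mice without IPTG took the place of WT + IPTG, the called genes changed in LacQ140. In 6-month striatum 9 of 34 were lower (26.5%, against 5.85% of all genes), and 4 of them, *Emcn*, *Rgs5*, *Slco1c1* and *Tie1*, were called against both controls, which is 4 of 11 and 4 of 9. *Ly6a* had a log2 fold change of -0.20 (adjusted p = 0.1), *Ly6c1* of -0.24 (adjusted p = 0.022, under the 20% bound) and *Adgrl4* of -0.13 against WT, and *Slc2a1* was 0.19 higher without passing the test. *Tek* (log2 fold change -0.495, SE 0.095, adjusted p = 0.00016), *Kdr*, the main VEGF receptor (-0.48, SE 0.14, adjusted p = 0.017), *Cldn5* (-0.355, SE 0.095, adjusted p = 0.0085), *Itm2a* and *Anpep* were called against WT and not against WT + IPTG. In 12-month striatum 5 genes were called against WT (14.7%, against 7.71% of all genes), and all 5 were among the 18 called against WT + IPTG: *Adgrf5*, *Emcn*, *Ly6a*, *Ly6c1* and *Slc2a1*. The fall of *Emcn* thus passed in striatum at both ages against either control.

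In 6-month cortex 5 of 34 genes were lower in LacQ140 than in WT + IPTG (14.7%, against 0.881% of all genes). *Ly6a* ran from 41.7 to 66.9 CPM in WT + IPTG and from 28.3 to 44.8 CPM (median 36.1) in LacQ140, with 9 of 10 LacQ140 libraries below all of WT + IPTG (log2 fold change -0.54, SE 0.09, adjusted p = 0.00059). *Ly6c1* showed the same overlap at a smaller size (log2 fold change -0.38, SE 0.083, adjusted p = 0.0089). *Slco1c1* ran from 68.2 to 100.8 CPM (median 88.4) in WT + IPTG and from 45.4 to 80.2 CPM (median 75.7) in LacQ140 (log2 fold change -0.31, SE 0.072, adjusted p = 0.018). *Anpep*, aminopeptidase N of pericytes (log2 fold change -0.43, SE 0.107, adjusted p = 0.029), and *Cdh5* (-0.27, SE 0.073, adjusted p = 0.046) were the other 2. The count depended on single control libraries: it was 3 without WT + IPTG male 1, 3 without male 2 and 2 without male 3, and *Ly6a* and *Ly6c1* were called in each of the 10 fits that left out 1 WT + IPTG library. Against WT, 8 genes were lower (23.5%, against 3.62% of all genes), of which *Anpep* (log2 fold change -0.40) and *Slco1c1* (-0.44) were also called against WT + IPTG. The other 6 were *Tek* (-0.55), *Emcn* (-0.42), *Rgs5* (-0.36), *Itm2a* (-0.37), *Ptprb* (-0.33) and *Kdr* (-0.43), and *Ly6a*, not called, had a log2 fold change of -0.05. In 12-month cortex 0 of 34 were called against WT + IPTG by edgeR (0.0899% of all genes), with 1 at an unadjusted p under 0.05, and 0 by DESeq2, and against WT edgeR called 0 as well (0.119% of all genes, 5 at an unadjusted p under 0.05). The median SE there was 0.19, against 0.09 in 12-month striatum.

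The fall in LacQ140 was compared between tissues in the same mice. At 6 months edgeR called 0 of 34 genes (1.12% of all genes, 4 at an unadjusted p under 0.05). At 12 months the log2 fold change of *Emcn* was -0.39 in striatum and 0.127 in cortex, where it did not pass the test (adjusted p = 0.8). In the joint model the difference was -0.53 (SE 0.157, adjusted p = 0.048), 1 of 34 called (2.94%), near the 2.82% of all genes. Of the 34 differences 33 were below 0, with a median of -0.33. This is a description over genes that share libraries and that varied together in 12-month cortex (median Pearson's r 0.65 over endothelial pairs). The call of *Emcn* was lost, with the direction kept, with the slope on transcript length as a covariate, with DESeq2's size factors and without the mouse as a block.

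The lowering groups were then compared with LacQ140 to ask whether withdrawing IPTG to lower mutant huntingtin changed these genes. These groups also differ from LacQ140 in IPTG, and the 2 differences cannot be told apart in a simple comparison. In 6-month striatum LacQ140_A had 4 of 34 genes called, all higher (11.8%, against 1.88% of all genes), and 30 of 34 log2 fold changes above 0 (median 0.17). *Vtn* (log2 fold change 0.28, SE 0.067, adjusted p = 0.011), *Tek* (0.38, SE 0.096, adjusted p = 0.016), *Adgrl4* (0.27, SE 0.071, adjusted p = 0.025) and *Tie1* (0.28, SE 0.078, adjusted p = 0.031) were higher. *Tie1* had a median of 7.69 CPM in LacQ140 and 9.79 CPM in LacQ140_A, near the 10.0 CPM of WT. LacQ140_2M had 1 gene called, *Slco1c1* (log2 fold change 0.28, SE 0.079, adjusted p = 0.049, 2.94% against 1.26% of all genes), with 30 of 34 above 0 and a median of 0.14. Its LacQ140_2M libraries ran from 64.5 to 74.4 CPM, and 6 of 10 lay above all LacQ140 libraries. The call was lost, leaving 0, when the compared groups were fitted alone and when the replicate number was a block.

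In 12-month striatum *Slc2a1* alone was called in LacQ140_A, where it ran from 142.7 to 237.3 CPM (median 197.3) against 125.6 to 165.7 CPM in LacQ140 (log2 fold change 0.38, SE 0.094, adjusted p = 0.019, 2.94% against 0.91% of all genes). All 10 LacQ140_A libraries lay above the LacQ140 median, and with the replicate number as a block 0 genes were called. The median over the 34 genes was 0.01 for LacQ140_A, 0.04 for LacQ140_2M and -0.01 for LacQ140_8M. In LacQ140_2M edgeR called 0 of 34 (0.608% of all genes, 4 at an unadjusted p under 0.05), and in LacQ140_8M, whose total *Htt* transcript in this set was at the level of LacQ140 (log2 fold change -0.001), also 0 (0.00565% of all genes, 4 at an unadjusted p under 0.05), as did DESeq2 in both. Total *Htt* transcript pools both alleles, and the paper reported less soluble mutant huntingtin protein in the striatum of every lowered group.

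In cortex edgeR fitted over all groups called 0 of 34 genes in every lowering group. In 6-month cortex LacQ140_A (0.00834% of all genes called) had 15 genes at an unadjusted p under 0.05, 30 of 34 above 0 and a median of 0.17, with the smallest p-value for *Tek* (log2 fold change 0.42, SE 0.087, adjusted p = 0.064), and 6 of the alternatives, DESeq2 among them, called 1 gene. LacQ140_2M (0%) had 9 at an unadjusted p under 0.05 and a median of 0.12. In 12-month cortex LacQ140_A (0.0435%), LacQ140_2M (0.0841%) and LacQ140_8M (0%) had 7, 0 and 2 at an unadjusted p under 0.05. In 12-month LacQ140_A 28 of 34 log2 fold changes were below 0 (median -0.20), and a fit of the compared groups alone called 6 genes, all lower. The share of all genes called in that fit is not given, so this count cannot be set against it.

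**Figure D4:**
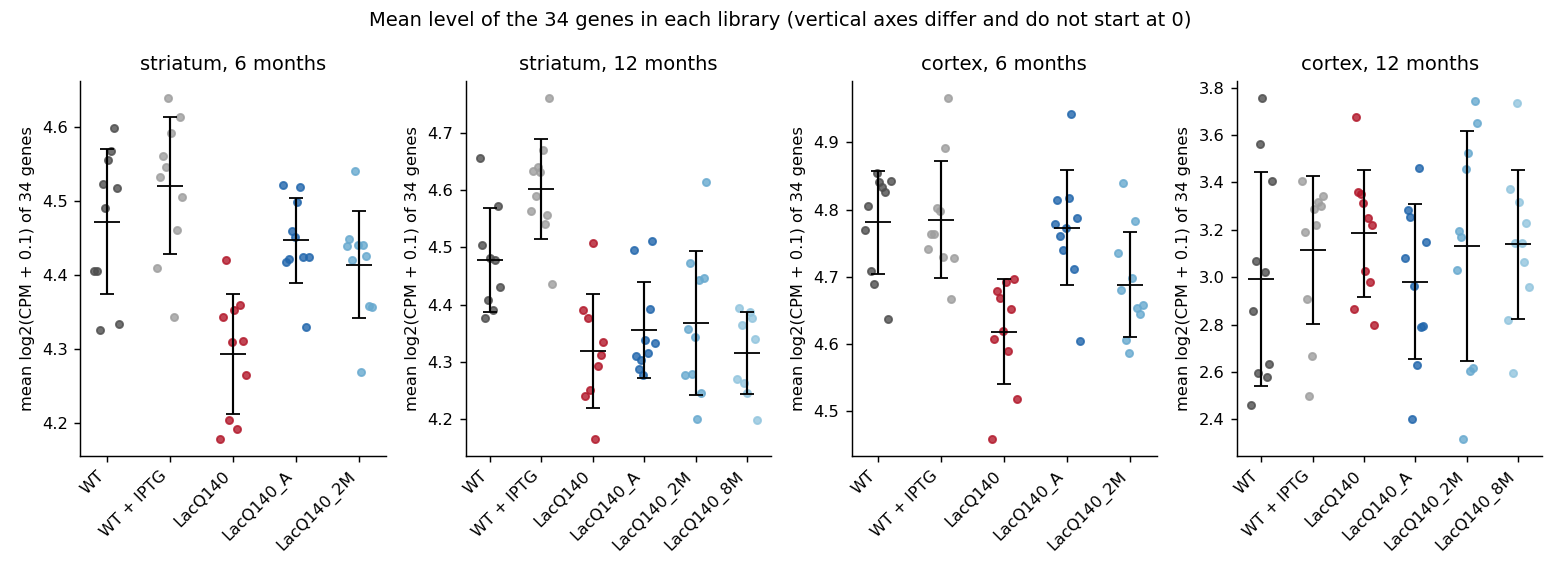
Mean of log2(CPM + 0.1) over the 34 genes in each library, by tissue, age and group; points are libraries, bars show mean and SD, and the vertical axes differ and do not start at 0. LacQ140 is lowest on average in 6-month striatum (4.29) and all mutant groups are below both WT groups in 12-month striatum, while 12-month cortex has the widest spread (SD 0.27 to 0.49).

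The mean of log2(CPM + 0.1) over the 34 genes put these comparisons on 1 scale, as a description. In 6-month striatum it was 4.47 ± 0.10 in WT, 4.52 ± 0.09 in WT + IPTG, 4.29 ± 0.08 in LacQ140, 4.45 ± 0.06 in LacQ140_A and 4.41 ± 0.07 in LacQ140_2M (mean ± SD, n = 10 each). Both lowering groups lay nearer to WT than to LacQ140 in this set. In 12-month striatum it was 4.48 ± 0.09 in WT (n = 9) and 4.6 ± 0.09 in WT + IPTG (n = 10), whereas LacQ140 (4.32 ± 0.10, n = 9), LacQ140_A (4.36 ± 0.08, n = 10), LacQ140_2M (4.37 ± 0.13, n = 10) and LacQ140_8M (4.32 ± 0.07, n = 9) were within 1 SD of each other. In 6-month cortex it was 4.62 ± 0.08 in LacQ140, 4.69 ± 0.08 in LacQ140_2M and 4.77 ± 0.09 in LacQ140_A, against 4.78 in both WT groups (n = 10 each), so LacQ140_2M lay nearer to LacQ140 than to WT there.

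To set the IPTG difference aside, the change from LacQ140 to LacQ140_A was taken less the change from WT + IPTG to WT. This uses the WT + IPTG libraries again and assumes that IPTG acts alike in both genotypes, which was not tested. In 6-month striatum *Ly6a* (difference of log2 fold changes 0.64, SE 0.106, adjusted p = 0.00028) and *Adgrl4* (0.60, SE 0.101, adjusted p = 0.00028) were called, 2 of 34 (5.88%) against 0.542% of all genes. DESeq2, filterByExpr and the length slope as a covariate each gave 4. *Ly6a* had medians of 34.9 CPM in WT, 49 CPM in WT + IPTG, 30.4 CPM in LacQ140 and 35.1 CPM in LacQ140_A, so the group with IPTG was the higher of the 2 in WT and the lower of the 2 in the mutant. *Adgrl4* had medians of 25.8, 32.5, 23.3 and 27.7 CPM in the same groups, with the same pattern. The change from LacQ140 to LacQ140_A alone was 0.166 for *Ly6a* (adjusted p = 0.33 by edgeR), which did not pass, and 0.266 for *Adgrl4* (adjusted p = 0.025). The rise with IPTG in WT was 0.473 for *Ly6a* and 0.339 for *Adgrl4*, so most of the *Ly6a* difference came from the WT groups. In 12-month striatum *Slc2a1* was called (0.49, SE 0.132, adjusted p = 0.049), 1 of 34 against 0.777% of all genes, and the call was lost with sex as a covariate and with the replicate number as a block. In cortex 0 were called by edgeR at 6 months (0% of all genes, 12 at an unadjusted p under 0.05) and at 12 months (0.0029%, 4 at an unadjusted p under 0.05).

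With no IPTG in either group, LacQ140_A was compared with WT. *Emcn* was lower in 6-month cortex (log2 fold change -0.33, SE 0.084, adjusted p = 0.049), 1 of 34 (2.94%) against 0.425% of all genes. This call too was lost, leaving 0, with the compared groups fitted alone and with the replicate number as a block. In 6-month striatum *Emcn* (-0.30, adjusted p = 0.052) and *Itm2a* (-0.30, adjusted p = 0.056) did not pass, and edgeR called 0 (0.91% of all genes, 7 of 34 at an unadjusted p under 0.05). In this set DESeq2 called 1, edgeR after filterByExpr 2, and edgeR with sex or with the length slope as a covariate 1 each. In 12-month striatum 0 of 34 were called (3.15% of all genes, 12 at an unadjusted p under 0.05), with 29 of 34 below 0 and a median of -0.13. In 12-month cortex 0 were called (0.0174% of all genes, 1 at an unadjusted p under 0.05).

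Sex differences were few. *Mfsd2a*, which carries lysophosphatidylcholine across the barrier, was higher in females than in males in 6-month striatum with group in the model (log2 fold change 0.27, SE 0.062, adjusted p = 0.019), 1 of 34 (2.94%) against 0.279% of all genes. In 12-month striatum its difference was 0.14 (SE 0.062, adjusted p = 0.39). edgeR called 0 of 34 genes in 12-month striatum (0.218% of all genes, 4 at an unadjusted p under 0.05), in 6-month cortex (0.192%, 8) and in 12-month cortex (0.154%, 1).

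Striatum and cortex of the same WT mice without IPTG were compared within each age. At 6 months all 34 genes were lower in striatum, with a median log2 fold change of -0.35, and 20 were called (58.8%, against 28.6% of all genes and 14.4% for lower alone). *Anpep* had the largest difference (log2 fold change -0.90, SE 0.091, adjusted p = 7.3e-13), followed by *Foxq1* (-0.66, SE 0.082), *Vwf* (-0.56, SE 0.078) and *Tek* (-0.55, SE 0.06). *Rgs5* (-0.45), *Slco1c1* (-0.36), *Cdh5* (-0.44), *Erg* (-0.50), *Kdr* (-0.49), *Ptprb* (-0.52), *Abcg2* (-0.42) and *Flt1* (-0.43) were also among the 12 with the smallest p-values. The 8 other called genes lay between -0.465 and -0.302. *Ly6c1* (-0.08), *Ly6a* (-0.11), *Slc2a1* (-0.09) and *Emcn* (-0.08) were not called.

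At 12 months the direction turned. Of the 34 genes 26 were higher in striatum and 2, *Itm2a* (log2 fold change -1.60) and *Abcg2* (-0.71), were lower, 82.4% called against 44.1% of all genes and 21.7% for higher alone. Besides *Itm2a*, the 12 with the smallest p-values were *Kdr* (2.08), *Pdgfrb* (2.42), *Abcc9* (2.40), *Flt1* (2.98), *Eng* (1.95), *Vwf* (2.61), *Ptprb* (2.54), *Adgrf5* (2.55), *Abcb1a* (2.54), *Slc2a1* (1.45) and *Tie1* (2.00), and the other higher genes lay between 0.47 and 2.42. By length, the 8 genes with transcripts over 5000 nt had a median of 2.48 and the 7 under 2000 nt a median of 0.14, against -0.42 and -0.18 at 6 months. Spearman's rho between the length and the difference was 0.64 in the 12-month and -0.43 in the 6-month mice over the 34 genes, a description over genes that share libraries. The slope on transcript length did not overlap between the tissues at 12 months, from -0.29 to 0.16 in cortex and 0.30 to 0.60 in striatum. With this slope as a covariate, 2 of 34 genes were called, 1 higher and 1 lower, and 17 of the called differences changed sign, so the tissue difference at 12 months cannot be told apart from the length dependence of the cortex libraries.

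**Figure D5:**
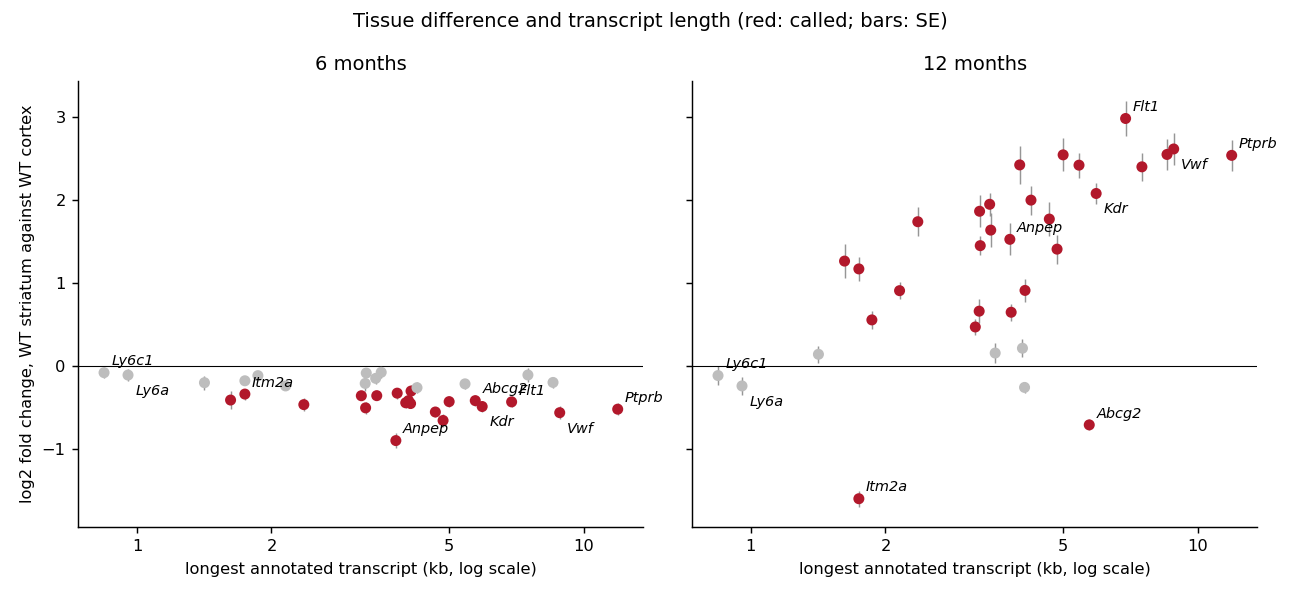
Log2 fold change of WT striatum against WT cortex for each of the 34 genes (vertical axis, bars SE) against the length of the longest annotated transcript in kb (log axis), at 6 and 12 months; red points are called. All points are below 0 at 6 months, and at 12 months *Flt1* (2.98) and *Vwf* (2.61) are the highest, while *Abcg2*, also a long transcript, is at -0.71.

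The wider vascular programme was followed with 5 lists of 70 genes that are no members. In LacQ140 against WT + IPTG, 16 fell and 5 rose in 6-month striatum, 24 fell and 0 rose in 12-month striatum, 8 fell in 6-month cortex and 0 were called in 12-month cortex. Over all genes, the shares called lower were 3.96% in 6-month and 4.86% in 12-month striatum, and those called in either direction were 0.881% in 6-month and 0.0899% in 12-month cortex. The lists were not tested against these shares or against each other. Of 13 vascular receptors and coreceptors 4 fell in 6-month striatum and in 6-month cortex, in both cases *Acvrl1*, *Notch4*, *Nrp1* and *S1pr1*, and 9 fell in 12-month striatum (median log2 fold change -0.36). Of 21 further brain endothelial genes 8 fell and 2, *Apold1* and *Slc7a1*, rose in 6-month striatum (median -0.27), and 6 fell in 12-month striatum (median -0.18). Of 9 further pericyte genes *Higd1b* and *Kcnj8* fell in 6-month striatum, *Enpep*, *Kcnj8* and *Ndufa4l2* in 12-month striatum and *Kcnj8* in 6-month cortex. Of 14 angiogenic ligands *Ndp* fell and *Dll4* and *Efnb2* rose in 6-month striatum, *Ndp*, which activates Wnt signalling at the barrier, fell in 6-month cortex and *Jag1* fell in 12-month striatum. Of 13 vascular targets and transcription factors 1 rose (*Axin2*) and 1 fell (*Lef1*) in 6-month striatum, *Nos3* fell in 6-month cortex, and *Apcdd1*, *Hey1*, *Klf4*, *Nos3* and *Sox7* fell in 12-month striatum. With IPTG in WT mice, 3 of the 70 rose and 3 fell in 6-month striatum, 3 rose in 6-month cortex and 2 rose in 12-month striatum, where 0.584%, 0.609% and 0.218% of all genes were called in either direction.

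The other *Ly6* genes of chromosome 15 did not all follow *Ly6a* and *Ly6c1*. Of 9 such genes, *Ly6h*, a neuronal member of the family, was higher in LacQ140 than in WT + IPTG in 6-month striatum, by 0.53 on the log2 scale (SE 0.116, adjusted p = 0.00065), and in 12-month striatum, by 0.58 (SE 0.09, adjusted p = 1e-06). *Ly6c2*, the close copy of *Ly6c1*, was lower at 6 months (-0.835, SE 0.283, adjusted p = 0.041), and *Ly6e* was not called. With IPTG in WT mice, *Ly6a* and *Ly6c1* were the only called genes of the 9, at 6 months.

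Some markers of other cells also changed in LacQ140 striatum, against WT + IPTG. All 6 striatal projection neuron markers fell at both ages, and the median of their log2 fold changes was -0.44 in 6-month and -0.96 in 12-month striatum. Of 7 smooth muscle genes 3 fell at 6 months and 1 at 12 months, and their summed level was 58.7 to 74.1 CPM in LacQ140 against 75.6 to 96.2 CPM in WT + IPTG at 6 months. Of 9 fibroblast genes 3 and 1 fell, of 7 astrocyte genes 2 and 2, of 7 microglial genes 3 and 1, and of 6 oligodendrocyte genes 3 and 2, at 6 and 12 months. Among 6 general neuron markers 0 were called at 6 months and 1, *Stmn2*, rose at 12 months. All 5 red blood cell genes fell in 12-month striatum (median log2 fold change -1.06), with a summed level of 107.1 to 454.7 CPM in LacQ140 and 276.3 to 1961.6 CPM in WT + IPTG, of which the highest was male 1. Without that library, 16 of the 34 vascular genes were called in place of 18. Of 7 choroid plexus genes, *Ttr* fell at both ages and *Aqp1* at 12 months, and of 12 interferon-responsive genes 2 fell at 6 months and 6 at 12 months. In 6-month cortex 2 of 7 smooth muscle genes, *Acta2* and *Myh11*, fell in LacQ140. With IPTG in 6-month cortex 5 of 7 leukocyte genes were lower, where 1 WT library had a summed level of 474.9 CPM and the median of that group was 1.24 CPM. Over all genes, 3.96% and 4.86% were called lower in 6- and 12-month striatum (8.03% and 9.35% of those kept by filterByExpr). In 6-month cortex 0.881% were called in LacQ140 and 0.609% with IPTG, in either direction. These short lists were not tested against those shares, and their part in the vascular results was not tested either.

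Within groups, the genes varied together only weakly, which is given as a description. After the group means were removed, the median Pearson's r over pairs of endothelial genes was 0.14 in 6-month striatum (50 libraries), 0.22 in 12-month striatum (57 libraries) and 0.15 in 6-month cortex (50 libraries). In 12-month cortex it was 0.65 (60 libraries), where the libraries also differed in their slope on transcript length. *Ly6a* and *Ly6c1* stood out with r between 0.83 and 0.92 in all 4 sets. *Flt1* and *Kdr*, both VEGF receptors, had r between 0.51 and 0.70. *Pdgfrb* and *Rgs5*, both pericyte genes, had r between -0.22 and 0.24, and *Slc2a1* and *Cldn5*, both endothelial, between -0.29 and -0.18 outside 12-month cortex and 0.52 within it.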

How the data were processed

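Total RNA from flash-frozen striatum and cortex was sequenced by the study as paired-end reads. The deposited values are estimated counts per gene, made by the authors from reads aligned to GRCm38 as the submitters' processing notes name it; 24.87% of nonzero values were not whole (tolerance 0.01), and the aligner, counter, strand setting and annotation are not given in the sources used here. Summed counts of 33292057 to 68038831 per library set the precision, and the SEs cover the spread between mice.

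Counts were rounded, genes with at least 1 count in a tissue and age were kept, and edgeR 4.0.16 (R 4.3.3) was used with TMM factors and its quasi-likelihood test, fitted over all groups of a tissue and age. P-values were adjusted by Benjamini-Hochberg over all genes, and calls needed adjusted p under 0.05 and a change of 20%. Tissues were compared with the mouse as a block, over the 107 mice of 110 with both tissues. DESeq2 1.42.0, filterByExpr, size factors, other designs and left-out libraries were tried as alternatives. The test was checked on simulated data. Gene models matched 54495 of 54532 genes; 11 of the 34 genes overlap another gene, 6 of them on the same strand (*Eng*, *Ptprb*, *Slc2a1*, *Abcb1a*, *Adgrf5* and *Anpep*), and reads shared with it cannot be told apart.

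The 34 genes and all lists were chosen with earlier results of these data known. In each comparison every called gene was named where at most 12 were called, otherwise the 12 with the smallest p-values, and at most 3 not called; other values of genes not called were picked after they were seen, to complete a role.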

Additional observations from a re-analysis of the deposited data

Results flagged for a closer look

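Of 79 groups of 4 to 10 libraries behind the named genes, 11 had a highest or lowest library set apart from the rest by Dixon's criterion, which chance gives in about 5% of groups. In 6-month cortex these were *Ly6a* in WT female 4 (26.7 CPM, the next 35.1 CPM), *Slc2a1* in WT female 5 (206.5 CPM, the next 158.8 CPM), *Tek* in WT + IPTG male 3 (18.5 CPM, the next 16.2 CPM) and *Slco1c1* in LacQ140 female 5 (45.4 CPM, the next 63 CPM). In 6-month striatum *Slco1c1* was low in LacQ140 female 5 as well (30.8 CPM, the next 49.5 CPM), and *Emcn* was high in LacQ140 male 4 (8.58 CPM, the next 7.2 CPM). In 12-month striatum *Ly6c1* was high in WT + IPTG male 4 (77.7 CPM, the next 56.9 CPM), *Abcc9* was high in LacQ140 male 3 (18.1 CPM, the next 13.5 CPM) and *Tek* was high in WT + IPTG female 4 (17.9 CPM, the next 14.1 CPM). *Ptprb* was high in the same WT + IPTG female 4 (58.1 CPM, the next 49.6 CPM) and low in LacQ140 female 3 (27.6 CPM, the next 36.6 CPM).

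Differences between effects passed for 3 genes when the IPTG change of WT mice was set against the change from LacQ140 to LacQ140_A. By edgeR's test these were *Ly6a* (0.64, adjusted p = 0.00028) and *Adgrl4* (0.60, adjusted p = 0.00028) in 6-month striatum and *Slc2a1* (0.49, adjusted p = 0.049) in 12-month striatum. That contrast assumes that IPTG acts alike in both genotypes. For the LacQ140 effect between striatum and cortex, edgeR called *Emcn* alone at 12 months (-0.53, adjusted p = 0.048). This was 1 of 34 genes (2.94%), near the 2.82% of all genes. The call was lost with size factors, with the length slope as a covariate and without the mouse as a block.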

How the results depend on the processing

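Most counts of called genes stayed within 1.5 times the main count under the alternatives, and 34 did not. With a covariate for the slope on transcript length, counts became 8 for LacQ140 in 6-month cortex, 1 for LacQ140_A against LacQ140 in 6-month cortex, 1 for LacQ140_A against WT in 6-month striatum, 4 and 1 beyond IPTG in 6-month striatum and cortex, 2 for tissue at 12 months, and 1 and 0 for the LacQ140 effect between tissues at 6 and 12 months. In the tissue comparison at 12 months 17 called genes also turned: *Ptprb* -0.362, *Adgrf5* -0.448, *Abcb1a* -0.342, *Tie1* -0.611, *Cdh5* -0.701, *Erg* -0.66, *Mfsd2a* -0.224, *Tek* -1.156, *Pecam1* -1.058, *Foxq1* -0.606, *Vtn* -0.367, *Adgrl4* -0.709, *Slco1a4* -0.466, *Sox18* -1.267, *Esam* -0.149, *Slco1c1* -0.424 and *Sox17* -0.12 as log2 fold changes. Fitting the compared groups alone gave 2 for IPTG in 6-month cortex, 8 for LacQ140 in 6-month cortex, 1 and 6 (all lower) for LacQ140_A in 6- and 12-month cortex, 0 for LacQ140_2M in 6-month striatum and 0 for LacQ140_A against WT in 6-month cortex. DESeq2 gave 1 for LacQ140_A in 6-month cortex, 1 for LacQ140_A against WT in 6-month striatum, and 4 and 1 beyond IPTG in 6-month striatum and cortex. filterByExpr gave 1, 2 and 4 for the first 3 of these. With sex as a covariate, LacQ140_A in 6-month cortex and LacQ140_A against WT in 6-month striatum had 1, and 0 were called beyond IPTG in 12-month striatum. Size factors gave 0 for the LacQ140 effect between tissues at 12 months. Counts under the alternatives are given here without the share of all genes called, so they show only how the main counts moved. The cause of these changes was not tested.

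Replicate numbers within sex were used as a block, although they do not pair mice across groups: same-numbered libraries had a mean correlation of 0.065 to 0.085, and some were as low as -0.682. With this replicate block, 1 gene was called for LacQ140_A in 6-month cortex, and 0 for LacQ140_A in 12-month striatum, LacQ140_2M in 6-month striatum, LacQ140_A against WT in 6-month cortex and the change beyond IPTG in 12-month striatum. Without the replicate block of the mouse, 0 were called for the LacQ140 effect between tissues at 12 months.

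Chosen after seeing the data, WT without IPTG as control gave 8 in 6-month cortex and 5 in 12-month striatum, and both WT groups pooled gave 8 in 6-month cortex, 13 in 6-month striatum and 12 in 12-month striatum. The share of all genes called against the pooled groups is not given. At an unadjusted p under 0.05 by edgeR there were 17, 24 and 24 of the 34 in these sets. Of all genes there were 5409 of 35987, 8463 of 35808 and 8395 of 35386. The larger count at 12 than at 6 months in striatum (18 and 11) thus held against WT + IPTG and not against WT (5 and 9) or both pooled. Leaving out 1 library at a time gave, for LacQ140, 10 to 12 in 6-month striatum, 15 to 23 in 12-month striatum and 2 to 6 in 6-month cortex (WT + IPTG libraries only, also chosen later), and for IPTG 3 to 4, 0 to 0 and 3 to 6. For single called genes, 516 values kept direction and call, 31 kept direction and lost the call and 17 turned. The lowest count of a gene in a library was 6, so counting error is large for the lowest values, and the median SE of 0.19 in 12-month cortex limits what could be detected there.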
